A study of Mus musculus with 11 samples.

Results

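Prom1, Epcam, Cd24a, Cd44, Foxl1, Afp, Gpc3, Kit and Ncam1 are 9 genes whose products have been proposed to mark liver progenitor cells or fetal and cancerous liver. They were chosen by gene symbol in the platform annotation, and all 9 were found among the 23185 named genes of the array, each as 1 feature. The study, by its title, asked what the biliary epithelium contributes to progenitor cells and hepatocytes after injury, and sorted mouse liver cells by a yellow fluorescent protein (YFP). The question for these genes is which of them are already present in normal biliary cells and which differ when the liver is injured.

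RNA of 4 groups of sorted cells was read on Affymetrix MoGene 2.0 ST arrays. YFP+ DDC (3 arrays) came from mice fed DDC, a porphyrinogenic diet used to model cholestatic injury, for 5 weeks, and the protocol speaks of 4 mice on this diet. YFP+ CDE (3 arrays) came from mice given CDE, the usual short name of a diet poor in choline with added ethionine that injures hepatocytes, and the labels state no duration. YFP+ UTR (2 arrays) came from untreated mice, and YFP- (3 arrays) from the unlabelled cells of untreated mice. The protocol, written for the DDC cells and attached to every sample, describes viable non-parenchymal cells sorted after digestion with collagenase and pronase, and the titles call all 4 groups liver progenitor cells, YFP- included. The labels state neither the strain, age or sex of the mice, nor what drives YFP, nor whether animals were pooled. Whether replicates are separate animals is also unstated, and p-values cover only the spread among the arrays, part of which may be technical.

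Hepatic progenitor cells, called oval cells in rodents, are small cells of the canals of Hering that appear as ductular reactions when hepatocytes are damaged or cannot divide. They have been sought with surface proteins that allow sorting, such as the pentaspan glycoprotein prominin-1 (Prom1, CD133), the adhesion molecule EpCAM, the GPI-anchored glycoprotein CD24, the hyaluronan receptor CD44, the stem cell factor receptor KIT and the neural cell adhesion molecule NCAM. Alpha-fetoprotein (Afp) and the heparan sulfate proteoglycan glypican-3 (Gpc3) are oncofetal: abundant in fetal liver, low in the adult and often high in hepatocellular carcinoma. Foxl1 is a winged-helix transcription factor whose Cre driver has been used to trace progenitors in injured mouse liver.

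Short stretches around the gene starts are shown as sequence context of the members, with no bearing on their levels tested. RefSeq promoters (GRCm38.p6, 250 bases before to 50 after a start) were at hand for 6 of the 9 genes, and each window of 30 bases runs 5′ to 3′ on the gene's strand with the motif in capitals. The TATA box TATAAA, searched on both strands, was in the Afp promoter and in no other of the 6, against 13.6% of all 32851 promoters. The GC box GGGCGG, also searched on both strands, was in the other 5 and in 35.7% of all promoters. The CCAAT box, CCAAT on both strands, was in 3 of the 6, Afp, Gpc3 and Prom1, and in 37.4% of all promoters, and it is not marked. A gene was counted when any of its promoters held the motif, whereas the shares are of single promoters. The Gpc3 promoter held 4 GC boxes, of which the window marks 1.
Afp, chr5:90490695-90490724, plus strand: ccttaaacaggaTATAAAaggacttcagca
Prom1, chr5:44101781-44101810, minus strand: ttagccaacccgGGGCGGagcagtgggacg
Epcam, chr17:87635909-87635938, plus strand: tgaacagtgtgtCCGCCCcccactcccacc
Cd44, chr2:102901645-102901674, minus strand: ggggggggagggGGGCGGccattctcttct
Gpc3, chrX:52614020-52614049, minus strand: ccttgcctcgccCCGCCCcgtccctcctcg
Kit, chr5:75574877-75574906, plus strand: ggagtgcgacccGGGCGGgagaagggaggg
A match of letters is a description and not a binding site. Cd24a, Foxl1 and Ncam1 are named only.

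The YFP+ arrays resembled each other across genes (Pearson r of 0.98 to 0.991), and the YFP- arrays less so (0.888 to 0.925). All 10 measured biliary markers, among them Krt19, Krt7 and Sox9, lay over background on each of the 8 YFP+ arrays. The defining markers of biliary epithelium were thus present in the YFP+ cells. Markers of other cells were also over background on UTR replicates 1 and 2. They were 10 and 11 of 14 hepatocyte, 6 and 6 of 10 macrophage, and 6 and 8 of 12 sinusoidal endothelial markers. Biliary cells below means the YFP+ fraction, and which of its cells carried a marker was not tested. The YFP- arrays differed in make-up. YFP- replicate 1 had all 10 biliary markers over background (mean log2 value 8.32, against 5.05 and 4.99 on replicates 2 and 3) and the highest sinusoidal endothelial mean (11.47), replicate 2 had a lymphocyte and NK cell mean of 9.76 (4.47 and 4.72 on the other 2) and a neutrophil and monocyte mean of 9.64 (6.60 and 6.28), and replicate 3 had the highest macrophage mean (11.68). The mean of 14 hepatocyte markers was 6.98, 8.17 and 8.48 on YFP- replicates 1, 2 and 3. Among the YFP+ arrays, CDE replicate 2 stood apart in these markers, with a mean of 8.15 against 7.15 to 7.40 on the other 7.

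**Figure D1:**
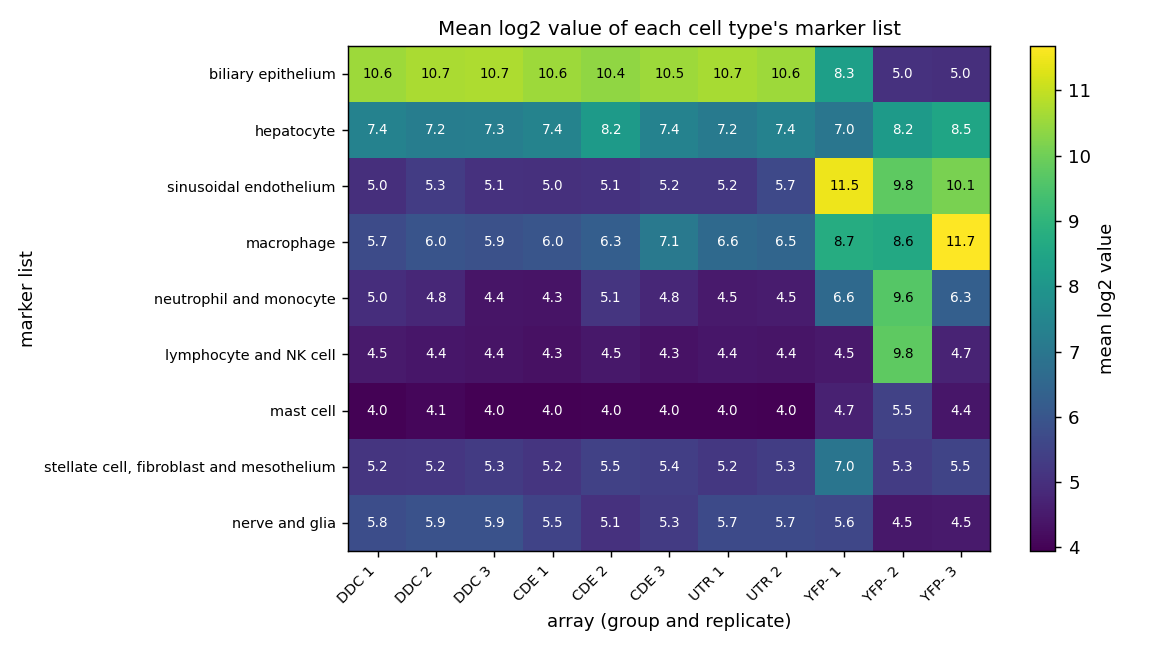
Mean log2 value of the markers of each cell type (rows) on each of the 11 arrays (columns). Biliary markers are near 10.6 on all YFP+ arrays and near 5.0 on YFP- replicates 2 and 3, with 8.3 on YFP- replicate 1, and the hepatocyte mean of CDE replicate 2 is 8.2.

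Values are log2 expression values as deposited, and the log base was inferred from their range of 2.55 to 13.57. No detection call came with them. The 95th percentile of 1082 olfactory receptor genes, which liver cells are not known to use, was therefore taken as background on each array (5.17 to 5.55), and a gene was called over background in a group when it exceeded this level on every array of the group. Since probes differ in response, levels of different genes are not set against each other.

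In untreated biliary cells 8 of the 9 markers were over background, against 54.4% of all genes, and Afp was not. The count was 6 of 9 in DDC (51.6% of all genes), 7 of 9 in CDE (53.1%) and 3 of 9 in YFP- (49.4%). Prom1, Epcam, Cd24a, Cd44 and Ncam1 cleared the stricter 99th percentile (6.54 to 7.21) on both UTR arrays, 5 of the 9. The other 3 over background, Foxl1, Gpc3 and Kit, sat between the 2 levels. Gpc3 barely passed, at 5.35 against a background of 5.32 on UTR replicate 1 and 5.51 against 5.22 on replicate 2. Foxl1 was at 5.54 against 5.32 and at 5.86 against 5.22. Gpc3 was under the array median on both UTR arrays, and Foxl1 on replicate 1.

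**Figure D2:**
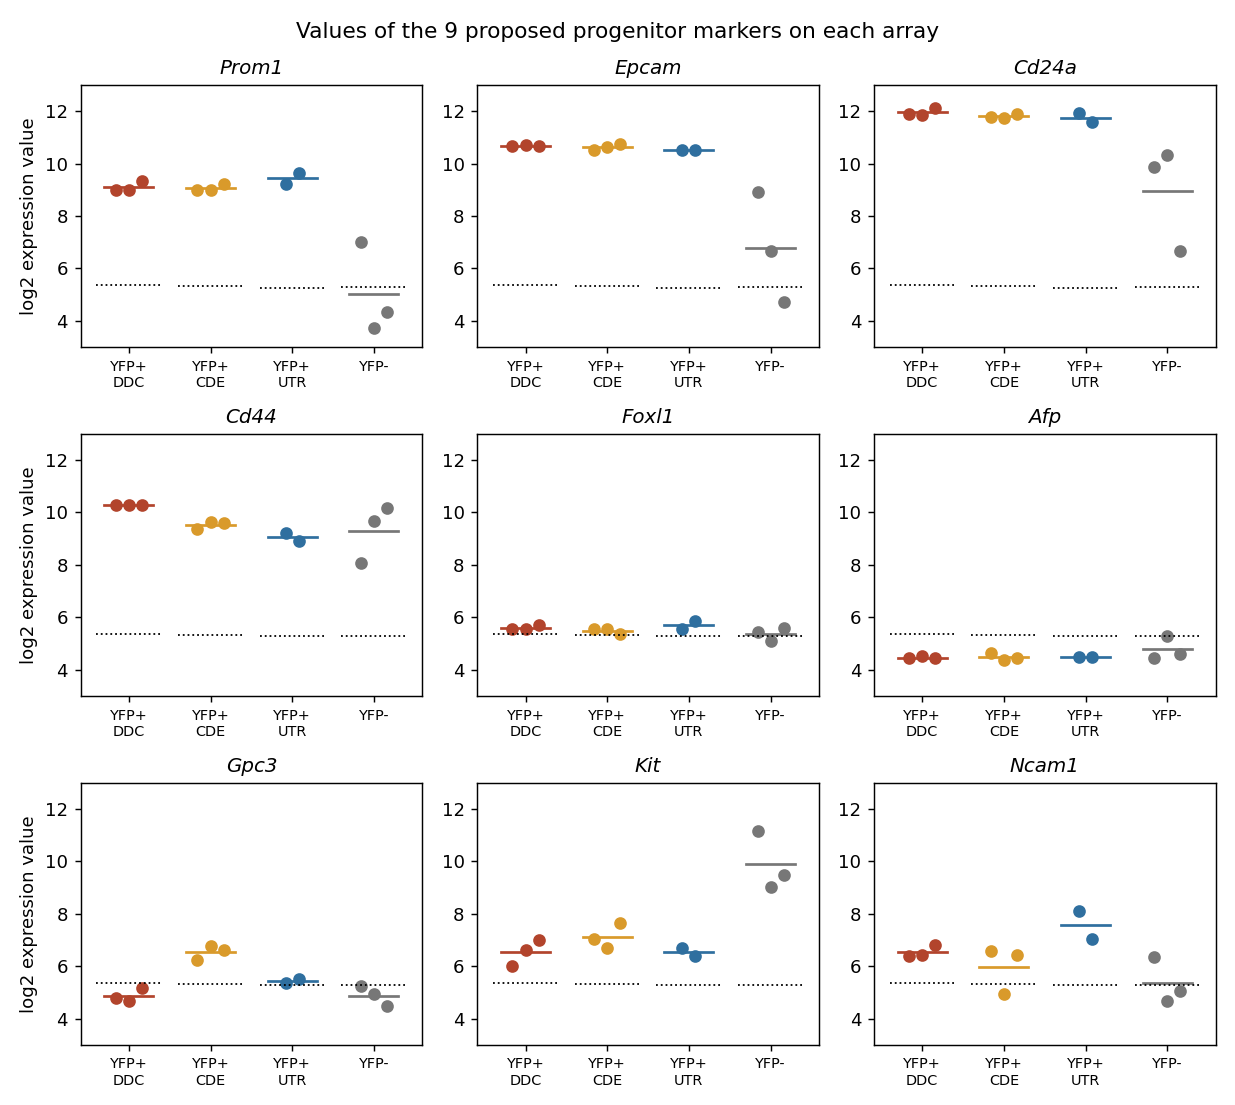
Log2 value of each of the 9 genes (panels) on each array (points) by group, with the group mean (solid line) and background, the 95th percentile of olfactory receptor genes averaged over the group's arrays (dotted line). Prom1, Epcam and Cd24a are high and flat in YFP+ cells, Cd44 is highest in DDC, Gpc3 is highest in CDE, Kit is highest in YFP-, and Afp lies near or under the dotted line.

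Untreated YFP+ cells were set against YFP- cells to ask what the biliary fraction carries that the rest of the non-parenchymal cells do not. The stem and adhesion markers Prom1 and Epcam were higher in biliary cells by over 3 log2 units, Ncam1 by about 2, and the receptor Kit was lower by over 3. With limma (all 11 arrays, p adjusted by Benjamini-Hochberg over 23185 genes, threshold 0.05) 3 of the 9 genes were called higher and 1 lower, against 10.4% and 8.46% of all genes. Arrays of the groups did not overlap for 6 of the 9 (43% of all genes), 5 of them higher in UTR (22.5%) and 1 lower (20.5%). In bulk samples, fewer cells of a type and less RNA per cell cannot be told apart.

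Prom1, a protein of membrane protrusions first used to sort blood stem cells, read 9.22 and 9.66 in UTR, against 7.01, 3.73 and 4.35 in YFP-. The 2 UTR arrays were far over all YFP- arrays, and YFP- replicates 2 and 3 were under background. The difference was 4.41 ± 0.76 (SE, adjusted p = 0.00361, limma). With each YFP- array under background raised to its background level, UTR was at least 11.8-fold higher, and at least 17.3-fold higher without YFP- replicate 1, the array with biliary transcripts.

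Epcam, the homophilic adhesion molecule of most simple epithelia, read 10.52 on both UTR arrays, against 8.92, 6.66 and 4.73 in YFP-. The 2 UTR values were identical, as they were for 591 genes (2.55%), so their spread of 0 is no measure of precision. The difference was 3.75 ± 0.90 (SE, adjusted p = 0.0181, limma). YFP- replicate 3 was under background, and with it raised to that level UTR was at least 11.5-fold higher, and at least 22.2-fold higher without YFP- replicate 1. The call was lost without either UTR array (adjusted p = 0.0959 without replicate 1 and 0.0989 without replicate 2, at the same difference).

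Cd24a, the mucin-like glycoprotein that also coats lymphocyte precursors and neutrophils, read 11.92 and 11.58 in UTR, against 9.87, 10.32 and 6.66 in YFP-. All YFP- arrays lay under both UTR arrays, and 2 of them were still bright. The difference of 2.80 ± 0.86 (SE) just missed the threshold (adjusted p = 0.0516, limma). It passed with array weights (0.0137), quantile normalization (0.0277) or the filter on dim genes (0.0315), and without YFP- replicate 1 (0.0296) or 2 (0.015). It did not pass in a fit of the 5 UTR and YFP- arrays (0.279) or under the replicate block (0.108). Leaving out any 1 DDC or CDE array also gave no call (0.0761 to 0.0786). The difference was 2.62 without UTR replicate 1 and 2.97 without UTR replicate 2. Without YFP- replicate 3 the difference was 1.65 (adjusted p = 0.000769), so its size rested on that array. On YFP- replicate 2, where Cd24a was 10.32, all 11 lymphocyte and NK cell markers and all 10 neutrophil and monocyte markers were over background, and on replicate 1, where it was 9.87, all 10 biliary markers were. Their part in the Cd24a level was not tested.

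Kit, the receptor tyrosine kinase of mast cells, blood progenitors and some endothelia, read 6.70 and 6.39 in UTR, against 11.17, 9.0 and 9.49 in YFP-. It was thus over background in UTR but under every YFP- array. The difference was -3.35 ± 0.58 (SE, adjusted p = 0.00377, limma), a 10.2-fold lower level. Kit was highest on YFP- replicate 1, the array with the highest endothelial mean. Mast cell markers were at 0 of 8 over background on every YFP+ array and at 1, 3 and 1 of 8 on the 3 YFP- arrays. There the mast cell carboxypeptidase Cpa3 read 3.65, 6.57 and 3.58, and the histamine-forming enzyme Hdc 10.24, 8.26 and 7.5. Endothelial markers were at 12 of 12 on every YFP- array, and at 6 and 8 of 12 on UTR replicates 1 and 2. The part of endothelial cells in the Kit level of either fraction was not tested.

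Ncam1, an immunoglobulin-family adhesion molecule of nerve, stellate and some ductular cells, read 8.09 and 7.02 in UTR, against 6.35, 4.67 and 5.06 in YFP-. The groups did not overlap, and UTR replicate 1 was the highest of all 11 arrays. The difference of 2.19 ± 0.60 (SE, adjusted p = 0.033, limma) is set against YFP- arrays of which 1 of 3 was over background, and with the other 2 raised to that level UTR was at least 3.68-fold higher. The call was lost with array weights (0.0881), and without UTR replicate 1 (1.66, adjusted p = 0.234), UTR replicate 2 (0.0602), YFP- replicate 2 (0.0708), YFP- replicate 3 (0.0788), DDC replicate 1 (0.0517) or DDC replicate 2 (0.0522).

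Cd44, the main cell-surface receptor for hyaluronan, read 9.23 and 8.91 in UTR, against 8.07, 9.68 and 10.17 in YFP-. It was bright in both fractions, the groups overlapped, and the difference was -0.24 ± 0.49 (SE, 95% interval -1.34 to 0.857, adjusted p = 0.782, limma). Without YFP- replicate 1 it was -0.86 and called (adjusted p = 0.00886), and without YFP- replicate 3 it was 0.19.

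The fetal and mesenchymal markers were low in both fractions. Gpc3 read 5.35 and 5.51 in UTR, against 5.23, 4.93 and 4.47 in YFP-, a difference of 0.55 ± 0.25 (SE, adjusted p = 0.174, limma). It was over background on 1 of 3 YFP- arrays, and with the other 2 raised to that level the difference was 0.13. Foxl1 read 5.54 and 5.86 in UTR, against 5.42, 5.10 and 5.58 in YFP- (0.33 ± 0.17 SE, adjusted p = 0.21). Afp read 4.48 on both UTR arrays, both under background, against 4.45, 5.27 and 4.60 in YFP- (adjusted p = 0.383). Afp was thus over background on YFP- replicate 2 and on none of the other 10 arrays.

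Over all YFP+ groups against YFP-, which mixes label and diet because every YFP- array was untreated, 5 of the 9 genes were called (30.5% of all genes), 4 higher (16.3%) and 1 lower (14.3%). Arrays did not overlap for 4 of the 9 (25.7%), 3 of them higher (13.9%) and 1 lower (11.7%). Cd24a passed here (2.89 ± 0.64 SE, adjusted p = 0.00829, limma), as did Gpc3 (0.74 ± 0.19 SE, adjusted p = 0.0159), although Gpc3 was over background on 0 of 3 DDC and 1 of 3 YFP- arrays, YFP+ and YFP- arrays overlapped and the call was lost when YFP- arrays were given their own variance (0.105) or without YFP- replicate 3 (0.0646). Ncam1 was at 1.33 ± 0.45 (SE, adjusted p = 0.0511), and was called without CDE replicate 2 (1.51, adjusted p = 0.0192), UTR replicate 2 (0.0481) or YFP- replicate 1 (1.83, adjusted p = 0.0114). The 11-array fit takes 1 spread per gene for all groups, while spreads differed, with the gene-wise SD having a median of 0.15 in DDC, 0.12 in CDE, 0.11 in UTR and 0.26 in YFP-. A fit of the 5 UTR and YFP- arrays alone no longer called Prom1, Epcam, Kit or Ncam1 (limma, adjusted p = 0.0965 for Prom1, 0.185 for Epcam, 0.0765 for Kit and 0.137 for Ncam1).

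**Figure D3:**
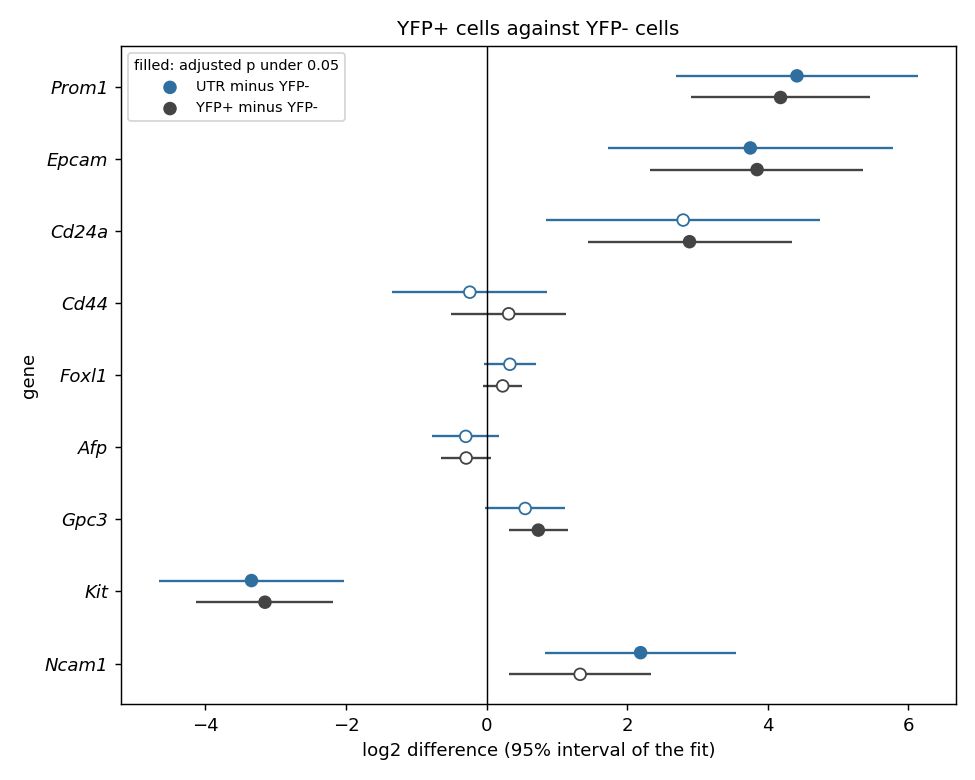
Log2 difference (points) with its 95% interval (lines) for each gene, for untreated YFP+ minus YFP- and for all YFP+ groups minus YFP-, with filled points for an adjusted p under 0.05. Prom1, Epcam and Cd24a lie between 2.8 and 4.4, Kit near -3.3, and the intervals of Cd44, Foxl1 and Afp span 0.

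Genes that act with these markers were compared in the same fit, where 10.4% of all genes were called higher and 8.46% lower. Of 13 measured partners of EpCAM and prominin, 9 were higher in untreated biliary cells and 1 lower, with a median of 3.05 against -0.01 for all genes. They included the protease matriptase St14 (3.56 ± 0.36), the claudin Cldn4 (3.05 ± 0.48) and E-cadherin Cdh1 (3.98 ± 0.67), while the sheddase Adam17 was lower (-1.43 ± 0.26; SE throughout). Some genes of this list, Cdh1 among them, are also biliary markers used above to describe the YFP+ cells. Of 19 ligands, partners and splicing factors of CD44, 3 were higher and 4 lower (median 0.05). The epithelial splicing regulators Esrp1 (2.63 ± 0.38) and Esrp2 (2.50 ± 0.25), known to favour the variant exons of CD44, were higher in UTR. The second hyaluronan receptor Lyve1 (-3.65 ± 0.34) and moesin, Msn (-3.59 ± 0.40), which links CD44 to actin, were lower in UTR. The array gives 1 value for the Cd44 gene, so its splice forms were not measured.

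Of 10 genes around Kit, 0 were higher and 5 lower (median -0.83), against 10.4% and 8.46% of all genes. They included the blood transcription factors Gata2 (at least 1.5-fold lower, since it was under background in UTR) and Lyl1 (-1.86 ± 0.44) and the adaptors Sh2b3 (-1.91 ± 0.20) and Grb2 (-0.84 ± 0.22). Of 8 genes around NCAM 2 were called higher and 1 lower (median 0.16). Fgfr1 (1.94 ± 0.57), an FGF receptor that NCAM binds, was higher. St8sia4, which adds polysialic acid to NCAM, was lower by at least 5.17-fold, since it was under background in UTR (adjusted p = 0.02). Ngfr also passed the test (adjusted p = 0.0318) but was under background on all 11 arrays, so its difference has no readable size. The 2 receptors listed for CD24, Selp (adjusted p = 0.108) and Siglecg (0.472), were under background in UTR and did not pass.

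Of 10 measured genes of the albumin locus or regulators of Afp, 7 were higher and 0 lower in UTR (median 2.32). For this and the next lists the share of all genes was 10.4% higher and 8.46% lower. The pioneer factors Foxa1 (at least 7.41-fold, since it was under background on all 3 YFP- arrays), Foxa2 (2.46 ± 0.24) and Foxa3 (2.98 ± 0.38) were higher, as was Zbtb20 (2.41 ± 0.29), the zinc finger repressor that silences Afp after birth. Afp itself was not over background in UTR, and was over it on 1 of 3 YFP- arrays. A link between Zbtb20 and Afp was not tested. Of 14 oncofetal genes 3 were higher and 0 lower (median 0.15): the claudin Cldn6 (4.51 ± 0.39), the imprinted zinc finger gene Peg3 (3.60 ± 0.44) and the ephrin receptor Epha7 (1.07 ± 0.25). Of 17 glypican and hedgehog genes 3 were higher and 0 lower (median 0.12), against 10.4% and 8.46% of all genes. The 3 were the glypican Gpc4 (2.81 ± 0.52), the hedgehog receptor Ptch1 (2.15 ± 0.47) and the hedgehog signal transducer Smo (1.94 ± 0.21). Among 19 other proposed progenitor markers 10 were higher and 2 lower (median 2.72), with the transcription factor Klf5 at 3.42 ± 0.42 and the integrin chain Itgb4 at 2.72 ± 0.34. A biliary marker used above is in this list too. Among the genes named in these lists, Esrp1, Cldn4, Gpc4, Peg3 and Itgb4 were over background on 1 of 3 YFP- arrays and Esrp2, Cldn6 and Epha7 on 2 of 3, so their differences rest in part on undetected signal.

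The diets were compared within YFP+ cells, with limma on the 8 YFP+ arrays, because YFP- takes no part in these comparisons and varies more. The fit of all 11 arrays is given beside each call. On these terms 2 genes moved. Cd44 rose on DDC, and Gpc3 was lower on DDC than on CDE.

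Cd44 read 10.27, 10.28 and 10.27 in DDC, 9.37, 9.62 and 9.59 in CDE, and 9.23 and 8.91 in UTR. The 3 groups did not overlap, and the order DDC over CDE over UTR held for every array. The mean was 10.27 ± 0.00428 in DDC (SD, n = 3), 9.52 ± 0.135 in CDE (SD, n = 3) and 9.07 ± 0.224 in UTR (SD, n = 2). The SD in DDC lies far under the median gene-wise SD of 0.15 in that group, so it is no measure of precision. Against UTR the rise on DDC was 1.20 ± 0.13 (SE, adjusted p = 0.0308, limma), a 2.30-fold higher level, and it was the single gene of the 9 called, against 0.16% of all genes (0.0949% higher and 0.0647% lower). On CDE the difference was 0.46 ± 0.13 (SE, 95% interval 0.166 to 0.746), with an adjusted p of 0.655. DDC was higher than CDE by 0.75 ± 0.11 (SE, adjusted p = 0.0293, limma), a call from the direct comparison of the diets. The labels state no duration for CDE, so the diet and the time on it cannot be told apart.

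In the fit of 11 arrays neither call held (adjusted p = 1 against UTR and 0.783 against CDE), with the SE at 0.486 and 0.435 because Cd44 had an SD of 1.10 among the YFP- arrays. The rise against UTR was 1.04 (adjusted p = 0.134) without UTR replicate 2, and the call was also lost without CDE replicate 3 (0.0664) or DDC replicate 1 (0.0636), 2 (0.104) or 3 (0.075), each at 1.20. DDC minus CDE lost its call without any 1 of the 6 DDC and CDE arrays (0.0644 to 0.111). Leukocyte markers, whose cells also carry CD44, are given beside it. The macrophage mean was 5.72 to 5.95 in DDC, 5.99 to 7.09 in CDE and 6.47 to 6.60 in UTR. The lymphocyte mean was 4.37 to 4.50 in DDC, 4.31 to 4.46 in CDE and 4.40 to 4.43 in UTR. The neutrophil and monocyte mean was 4.40 to 4.96 in DDC, 4.35 to 5.13 in CDE and 4.51 to 4.55 in UTR. Their part in the Cd44 level was not tested.

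Gpc3, which tethers Wnt and hedgehog ligands at the cell surface, read 4.77, 4.67 and 5.18 in DDC, 6.23, 6.78 and 6.62 in CDE, and 5.35 and 5.51 in UTR. Every DDC array was under both UTR arrays and every CDE array over them. Gpc3 was over background on 0 of 3 DDC arrays and on 3 of 3 CDE arrays. DDC was lower than CDE by -1.67 ± 0.18 (SE, adjusted p = 0.012, limma) in 3 of 3 arrays, with means of 4.87 ± 0.27 in DDC and 6.54 ± 0.29 in CDE (SD, n = 3 each). With each DDC array raised to its background level, the level in CDE was at least 2.27-fold that in DDC. Gpc3 and Cd44 were the 2 of the 9 genes called between the diets, against 1.16% of all genes. Gpc3 was the 1 called lower (0.742%) and Cd44 the 1 called higher (0.418%).

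Against UTR neither diet gave a call for Gpc3. With the DDC arrays raised to background, DDC was at least 1.05-fold lower (adjusted p = 0.386, limma), and the lower values measured under background carry no size. On CDE the difference was 1.12 ± 0.20 (SE, 95% interval 0.656 to 1.57, adjusted p = 0.353). Both comparisons share the 2 UTR arrays. In the fit of 11 arrays the adjusted p of DDC minus CDE was 0.0765. The call was also lost without CDE replicate 3 (-1.63, adjusted p = 0.0654) or DDC replicate 1 (-1.62, adjusted p = 0.0506).

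Hepatocyte markers are given beside Gpc3 because CDE replicate 2, the array with the highest Gpc3 value of 6.78, was also the one with the most hepatocyte transcripts. Without that array DDC minus CDE was -1.55 (adjusted p = 0.0313, limma). The marker mean is not one signal: the fibrinogen chain Fgb read 10.81, 9.73 and 10.16 in DDC, 7.72, 11.22 and 7.62 in CDE, and 7.08 and 7.26 in UTR. Albumin, Alb, was lower in DDC than in CDE by -0.73 ± 0.09 (SE, adjusted p = 0.0162), with values of 11.85, 11.70 and 11.86 in DDC and 12.48, 12.58 and 12.54 in CDE, and the 14 hepatocyte markers had a median of -0.35 in this comparison, 1 of them called. The part of hepatocyte RNA in the Gpc3 values was not tested.

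**Figure D4:**
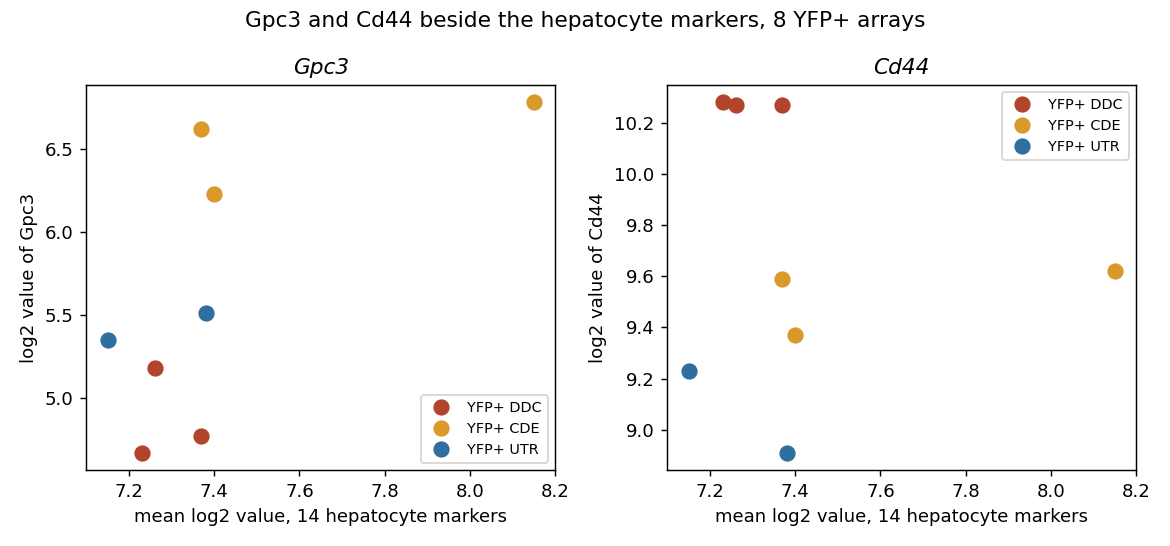
Log2 value of Gpc3 (left) and Cd44 (right) against the mean log2 value of 14 hepatocyte markers on each of the 8 YFP+ arrays, coloured by group. CDE replicate 2 stands alone at 8.15 on the horizontal axis, the other 7 lie between 7.15 and 7.40, and the mean includes Fgb, which was 9.73 to 10.81 in DDC.

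Ncam1 read 6.40, 6.41 and 6.80 in DDC, 6.59, 4.92 and 6.42 in CDE, and 8.09 and 7.02 in UTR. All 6 arrays of the diets were under both UTR arrays, which were 1.07 apart. The difference was -1.01 ± 0.50 on DDC (SE, 95% interval -2.15 to 0.133, adjusted p = 0.538, limma) and -1.57 ± 0.50 on CDE (-2.72 to -0.428, adjusted p = 0.687), neither of them called. CDE replicate 2, at 4.92, was under background and set much of the size on CDE: without it the difference was -1.04 (adjusted p = 0.826), and without UTR replicate 1 it was also -1.04. The mean of 17 stellate cell, fibroblast and mesothelium markers was 5.15 to 5.28 in DDC, 5.15 to 5.45 in CDE and 5.19 to 5.34 in UTR. Of 6 nerve and glia markers, Sox10, Tubb3, Snap25 and Gap43 were under background on all 8 YFP+ arrays. The other 2, S100b and Scn7a, were higher in UTR than in YFP-. S100b read 7.45, 7.81 and 8.34 in DDC, 5.33, 5.4 and 5.66 in CDE, and 6.84 and 7.69 in UTR. Scn7a read 8.45, 8.84 and 8.38 in DDC, 9.11, 7.43 and 8.68 in CDE, and 9.0 and 8.79 in UTR. The part of either list's cells in the Ncam1 values was not tested.

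Kit read 5.99, 6.63 and 6.99 in DDC, 7.04, 6.70 and 7.65 in CDE, and 6.70 and 6.39 in UTR. The groups overlapped, with differences of -0.01 ± 0.33 on DDC (SE, 95% interval -0.776 to 0.758) and 0.58 ± 0.33 on CDE (-0.183 to 1.35), and an adjusted p of at least 0.869 in both (limma).

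Prom1, Epcam and Cd24a gave no call on either diet. Prom1 read 9.0, 9.01 and 9.33 in DDC, 8.99, 9.0 and 9.24 in CDE, and 9.22 and 9.66 in UTR, with differences of -0.33 (95% interval -0.717 to 0.0545) on DDC and -0.37 (-0.752 to 0.0196) on CDE. Epcam stayed within 10.52 to 10.76 on all 8 YFP+ arrays, with differences of 0.17 (-0.0667 to 0.398) on DDC and 0.12 (-0.112 to 0.353) on CDE. Cd24a lay within 11.58 to 12.11, with differences of 0.21 (-0.0971 to 0.521) on DDC and 0.06 (-0.25 to 0.367) on CDE. None of these 6 intervals, all from the fit of 8 arrays, reached 1 log2 unit from 0. Smaller changes could not be told from none. The fit of 11 arrays had an SE of 0.76 for Prom1, 0.899 for Epcam and 0.862 for Cd24a on either diet. That fit sets no such limit.

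Foxl1 and Afp gave no call on either diet. Foxl1 read 5.54, 5.55 and 5.72 in DDC, 5.57, 5.54 and 5.35 in CDE, and 5.54 and 5.86 in UTR, a range of 0.51 log2 units near background. Afp read 4.44, 4.51 and 4.44 in DDC, 4.65, 4.39 and 4.46 in CDE, and 4.48 and 4.48 in UTR, under background on all 8 arrays. No fold is given for Afp within YFP+ cells, since both sides of each comparison were under background.

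Over the whole set, DDC minus UTR separated the arrays of 4 of the 9 genes without overlap (24.5% of all genes), 2 higher (12.7%) and 2 lower (11.8%). CDE minus UTR separated 3 (22%), 2 higher (11.5%) and 1 lower (10.5%). DDC minus CDE separated 2 (20.3%), Cd44 higher (9.64%) and Gpc3 lower (10.6%). CDE against UTR called 0 of the 9 and 0 of all 23185 genes (0%, limma, 8 or 11 arrays), while 3 of the 9 (Cd44, Gpc3 and Ncam1) and 1492 of all genes had an unadjusted p under 0.05 in 8 arrays. DDC against UTR called 37 genes in 8 arrays and 0 in 11, and DDC against CDE called 269 in 8 and 1 in 11 (0.00431%), which is none of the 9.

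**Figure D5:**
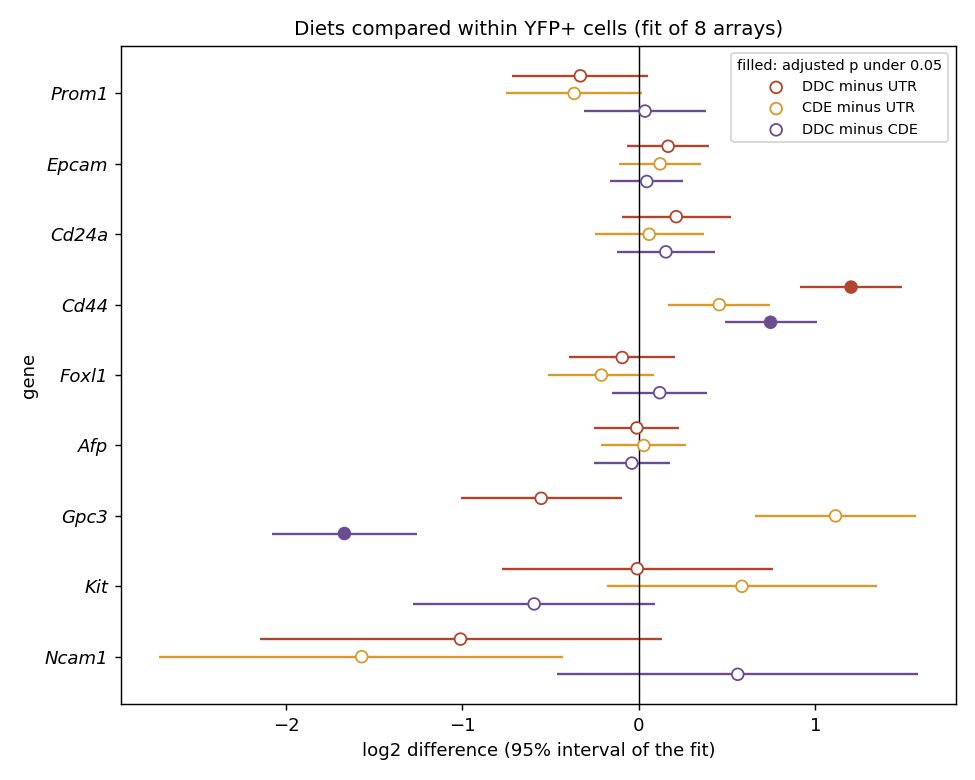
Log2 difference (points) with its 95% interval (lines) for each gene in the 3 comparisons within YFP+ cells, with filled points for an adjusted p under 0.05 in the fit of 8 arrays. The filled points are Cd44 on DDC against UTR (1.20) and against CDE (0.75), and Gpc3 on DDC against CDE (-1.67).

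Of the 9 lists of related genes, no gene passed on CDE against UTR. On DDC against UTR 1 did: the oncofetal list member Peg3, which fell by -1.29 ± 0.12 (SE, adjusted p = 0.0209, limma) with 7.88, 8.07 and 8.04 in DDC and 9.16 and 9.40 in UTR. Peg3 was also lower in DDC than in CDE (-0.92 ± 0.11, adjusted p = 0.0141), where it read 8.80, 8.93 and 9.02. In the fit of 11 arrays Peg3 had an adjusted p of 0.904 and 0.63. Icam1, the leukocyte adhesion molecule listed among other proposed progenitor markers, was higher in DDC than in CDE by 0.92 ± 0.16 (SE, adjusted p = 0.0404, and 0.188 in 11 arrays), with 8.65, 9.06 and 9.15 in DDC and 8.16, 8.08 and 7.87 in CDE.

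Among the 19 genes around CD44 none passed on either diet. Msn was at 1.71 ± 0.41 on DDC (SE, adjusted p = 0.182) and 1.28 ± 0.41 on CDE (adjusted p = 0.687), with UTR arrays 7.91 and 6.23. The hyaluronan receptor Hmmr was under background on all 8 YFP+ arrays (adjusted p = 0.309 on DDC). Among the 17 glypican and hedgehog genes none passed on either diet, and Gpc6 (adjusted p = 0.136 on DDC and 0.903 on CDE) was over background on 1 of 3 DDC arrays, 0 of 3 CDE arrays and 0 of 2 UTR arrays. Among the 13 partners of EpCAM and prominin none passed, and Cldn4 was at 1.06 ± 0.36 on DDC (adjusted p = 0.348). The medians of these 3 lists on DDC were 0.13, 0.06 and 0.12, against 0.01 for all genes.

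Genes with the most similar pattern were found by Pearson correlation, as a description over points that share sorted fraction and array. Over the 11 arrays Prom1 ran closest to desmoplakin, Dsp (r = 0.998), Epb41l4a (0.997) and the chloride channel Ano1 (0.997). Epcam ran closest to the protease inhibitor Spint2 (0.994), Smim22 (0.994) and Snhg18 (0.991). For Cd24a the genes were Tesc (0.996), Net1 (0.989) and the sodium pump subunit Atp1b1 (0.987). Kit ran with Nqo2 (0.985), the neonatal Fc receptor Fcgrt (0.978) and Fkbp7 (0.977), and Gpc3 with Atoh8 (0.917), Depp1 (0.896) and the aminopeptidase Anpep (0.861). Over the 8 YFP+ arrays Cd44 ran with the cytolinker Dst (0.992), Uhrf1 (0.981) and haptoglobin, Hp (0.979). Over the same 8 arrays Gpc3 ran with Itih2 (0.984), Errfi1 (0.982) and the corticosteroid carrier Serpina6 (0.981). Within the set Prom1 and Epcam had r = 0.95 over 11 arrays and -0.26 over the 8 YFP+ arrays. Gpc3 and Cd44 had r = -0.49 over the 8 arrays.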

How the data were processed

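The table deposited by the authors holds 1 log2 value per gene feature on each of 11 arrays. The sources used here state no background correction, normalization or probe summary, and base 2 is inferred. Of 25206 features, 23185 had exactly 1 gene symbol (GEO's platform annotation), 0 had several and 2021 had none and were left out. RefSeq matched all 23185 by gene number (GRCm38.p6). Some genes of the lists are not reported here.

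Group differences came from limma 3.58.1 under R 4.3.3 (eBayes without trend, two-sided, Benjamini-Hochberg over all genes). The fit held 11 arrays (7 residual degrees of freedom) for comparisons with YFP- and the 8 YFP+ arrays (5 residual degrees of freedom) for comparisons of diets. The scripts were tested on simulated data with 200 changed genes. The number of arrays limits the precision. Alternatives were the other set of arrays, a variance of its own for YFP- (array weights), quantile normalization, a filter on dim genes (over background on at least 2 arrays), trend with robust eBayes, the replicate number as a block, and each array left out.

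The 9 genes, the 19 lists (204 of 219 symbols measured), the fits and the rules were chosen with earlier results of these data known. The text names all 9 genes, from each related list at most 4 called genes (at most 2 uncalled where the list has no call), lowest p first, and for likeness the 3 genes with the highest r among those with an SD of at least 0.5 (11 arrays) or 0.3 (8 arrays), without predicted genes, receptor segments or small RNAs. Marker genes named singly (Hdc, Cpa3, Alb, Fgb and those of nerve and glia) were chosen after their values were seen, as were the at-least folds, for which each array under background was raised to its background level.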

Additional observations from a re-analysis of the deposited data

Results flagged for a closer look

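The test of DDC minus CDE itself called 2 of the 9 genes, against 1.16% of all genes. Cd44 was higher on DDC than on CDE by 0.75 (adjusted p = 0.0293, limma on 8 arrays, higher in 3 of 3 arrays). Gpc3 was lower on DDC than on CDE by a measured -1.67 (adjusted p = 0.012, limma on 8 arrays, lower in 3 of 3 arrays). All 3 DDC arrays were under background, so the level in CDE was at least 2.27-fold that in DDC. All 3 DDC arrays were under the UTR mean while all 3 CDE arrays were over it. With DDC under background, its step down from UTR carries no size. Neither call held in the fit of 11 arrays. Groups of 2 or 3 arrays were too small to look for a single array far from the others.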

How the results depend on the processing

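Across 45 differences (9 genes, 5 comparisons) and 643 recomputed values, 582 kept direction and side of the threshold, 33 lost a call, 12 gained one and 16 changed sign; 10 of the 45 differences changed sign somewhere, 0 of them called. UTR minus YFP- called 4373 genes, 931 in a fit of 5 arrays and 2306 to 5817 with 1 array left out. YFP+ minus YFP- called 7083, and 4193 with array weights. CDE minus UTR called 0, with 1 after the filter on dim genes, 1 with trend and robust eBayes and 0 to 46 with 1 array left out. DDC minus UTR called 37, with 0 in 11 arrays and 0 to 103 with 1 array left out. DDC minus CDE called 269, with 1 in 11 arrays and 16 to 211 with 1 array left out. At the 99th percentile the genes over background were 4 in CDE (7 at the 95th) and 5 in UTR (8 at the 95th). With quantile normalization Cd24a in CDE minus UTR was -0.00971.

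Arrays with the same replicate number shared little deviation from their group means over all genes (r of -0.07 to 0.13). In groups this small such a correlation could miss a modest shared effect, so it does not decide whether the numbers pair the samples. With a replicate block DDC minus UTR called 0 genes and DDC minus CDE 61. Under the replicate block Cd44 had an adjusted p of 0.115 in DDC minus UTR and 0.0871 in DDC minus CDE, Cd24a in CDE minus UTR was -0.00185 and Afp in DDC minus UTR was 0.00485 (limma).

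Leaving out 1 array turned the sign of small differences. Cd44 ranged over -0.859 to 0.194 in UTR minus YFP- and -0.306 to 0.747 in YFP+ minus YFP-. In CDE minus UTR Cd24a ranged over -0.112 to 0.23 and Afp over -0.0472 to 0.0828. In DDC minus UTR Foxl1 ranged over -0.254 to 0.0663, Afp over -0.0336 to 0.000567 and Kit over -0.236 to 0.264. In DDC minus CDE Prom1 ranged over -0.0723 to 0.118, Epcam over -0.0161 to 0.107 and Afp over -0.0944 to 0.0357. The cause was not tested, and the Afp signs, under background on both sides within YFP+ cells, carry no direction. Where a group is left with 1 array, it is assumed to vary like the others. Signal near or under background limits Foxl1, Afp and Gpc3.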
